A study of Mus musculus with 8 samples.

Results

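A short stretch of mouse chromosome 17 that holds one end of Grm4 had a raised DNA copy-number ratio in all 6 liver tumours of FEAT transgenic mice and in 1 normal liver of such a mouse, but not in a wild-type liver. The probes described here are those named Grm4 or AK015366 on the array and all others in a window of about 1.2 Mb on chromosome 17, whose first probe starts at 25000442 and whose last ends at 26197261. This gives 160 of 232626 probes. Of these, 13 are named Grm4 and 1 is named AK015366, and 26 other gene names fall in the window. The window was chosen because these same values were high, so the differences in level between arrays are given as a description, with no test. Exact tests were made only of how the tumours' levels related to 3 measures that the choice had not used.

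Grm4 encodes metabotropic glutamate receptor 4, a group III receptor that couples to Gi/o proteins and lowers adenylyl cyclase activity. It is best known from the brain, where it sits on presynaptic terminals and dampens transmitter release. AK015366 is a mouse testis cDNA clone with no classified product. A focal gain is a rise in copy number over a stretch much shorter than a chromosome arm. Such a gain can cover a whole gene or stop inside one.

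The probes at the edges of the raised stretch carry the result, and their sequences are shown as given on the array, 5′ to 3′, with no letters in capitals. The first, at chr17:25439001-25439060, is the last probe before the raised stretch on the low-coordinate side. In the normal FEAT liver alone it was counted into the stretch. The second, at chr17:25489695-25489754, and the third, the AK015366 probe at chr17:25512393-25512452, lie in the raised stretch. The fourth, at chr17:25621286-25621336, is the last Grm4 probe inside the stretch, the fifth, at chr17:25630718-25630777, is the next Grm4 probe, and the sixth, at chr17:25636485-25636542, follows it.
probe before the stretch: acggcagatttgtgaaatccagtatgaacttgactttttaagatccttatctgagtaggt
first probe of the stretch: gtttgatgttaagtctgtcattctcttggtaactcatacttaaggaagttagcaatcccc
AK015366 probe: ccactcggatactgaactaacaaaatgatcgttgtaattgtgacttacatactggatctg
last probe of the stretch: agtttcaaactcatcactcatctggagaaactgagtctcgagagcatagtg
next Grm4 probe: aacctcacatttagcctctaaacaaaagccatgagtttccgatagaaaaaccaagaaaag
second Grm4 probe beyond: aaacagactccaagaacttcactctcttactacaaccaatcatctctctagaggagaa
Positions follow the annotation printed with the array, and the sources used here do not name its genome build. Whether a probe lies in an exon or an intron, and which end of Grm4 the stretch covers, was not determined here.

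Genomic DNA of 8 livers, 1 array each, was compared with DNA from the liver of a wild-type male C57BL/6 mouse aged 6 months, and all mice were male C57BL/6. Tumours 1 to 6 were hepatocellular carcinomas of FEAT transgenic mice aged 16, 21, 20, 18.5, 22 and 12 months. The normal FEAT liver came from a FEAT transgenic mouse aged 13 months, and the wild-type one from a mouse aged 6 months. Tumour 4 came from a mouse with lung metastasis. FEAT is the gene now named Mettl13. The sources used here do not name the promoter that drives the transgene. Each non-tumour group is a single array without a replicate, and genotype, age and tumour cannot be told apart between the wild-type liver and the tumours. Each value is a log2 ratio, test DNA over reference DNA, from which the array's autosomal median was subtracted. The noise of neighbouring probes had an SD of 0.260, 0.233, 0.321, 0.487, 0.221 and 0.360 in tumours 1 to 6, 0.323 in the normal FEAT liver and 0.221 in the wild-type liver, so that single probes are read with caution, above all in tumour 4.

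A least-squares search on the mean profile of the 7 FEAT livers placed the raised stretch at chr17:25489695-25621336, and it is called the Grm4 interval here. It spans 132 kb and holds 11 probes, of which 3 are named Grm4, 1 is AK015366 and 7 carry no gene name. The nearest probe on the low-coordinate side lies 50.6 kb away and the nearest on the other side 9.38 kb away, so the stretch so placed could be up to 192 kb long. With the next Grm4 probe included, which the segments of 4 tumours held, it could be up to 197 kb. Neither length counts the earlier start, at 25439001, of the segment in the normal FEAT liver. The probes in it are spaced by a median of 14.3 kb, against 7.79 kb over the autosomes.

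The median log2 ratio of the interval was 0.96, 0.59, 1.03, 1.14, 0.81 and 0.64 in tumours 1 to 6, 0.77 in the normal FEAT liver and -0.0028 in the wild-type liver. All 6 tumours and the normal FEAT liver lay far above the wild-type liver, and the normal FEAT liver lay within the range of the tumours' medians. By the mean of the probes it was below every tumour, at 0.55 against 0.62 to 1.14, so its place among the tumours depended on the summary. The tumours' medians averaged 0.86 ± 0.22 (SD, n = 6). The remaining 149 probes of the window stayed near 0, at 0.04 ± 0.08 in the tumours (SD, n = 6), -0.0047 in the normal FEAT liver and -0.04 in the wild-type liver. Tumours 4 and 5 stood slightly higher there, at 0.09 and 0.18, and were as high along chromosome 17 outside the window, at 0.09 and 0.17. Above the 50 probes on each side of the window, the level was 0.99, 0.60, 1.01, 1.13, 0.69 and 0.60 in tumours 1 to 6, 0.75 in the normal FEAT liver and 0.02 in the wild-type liver.

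**Figure D1:**
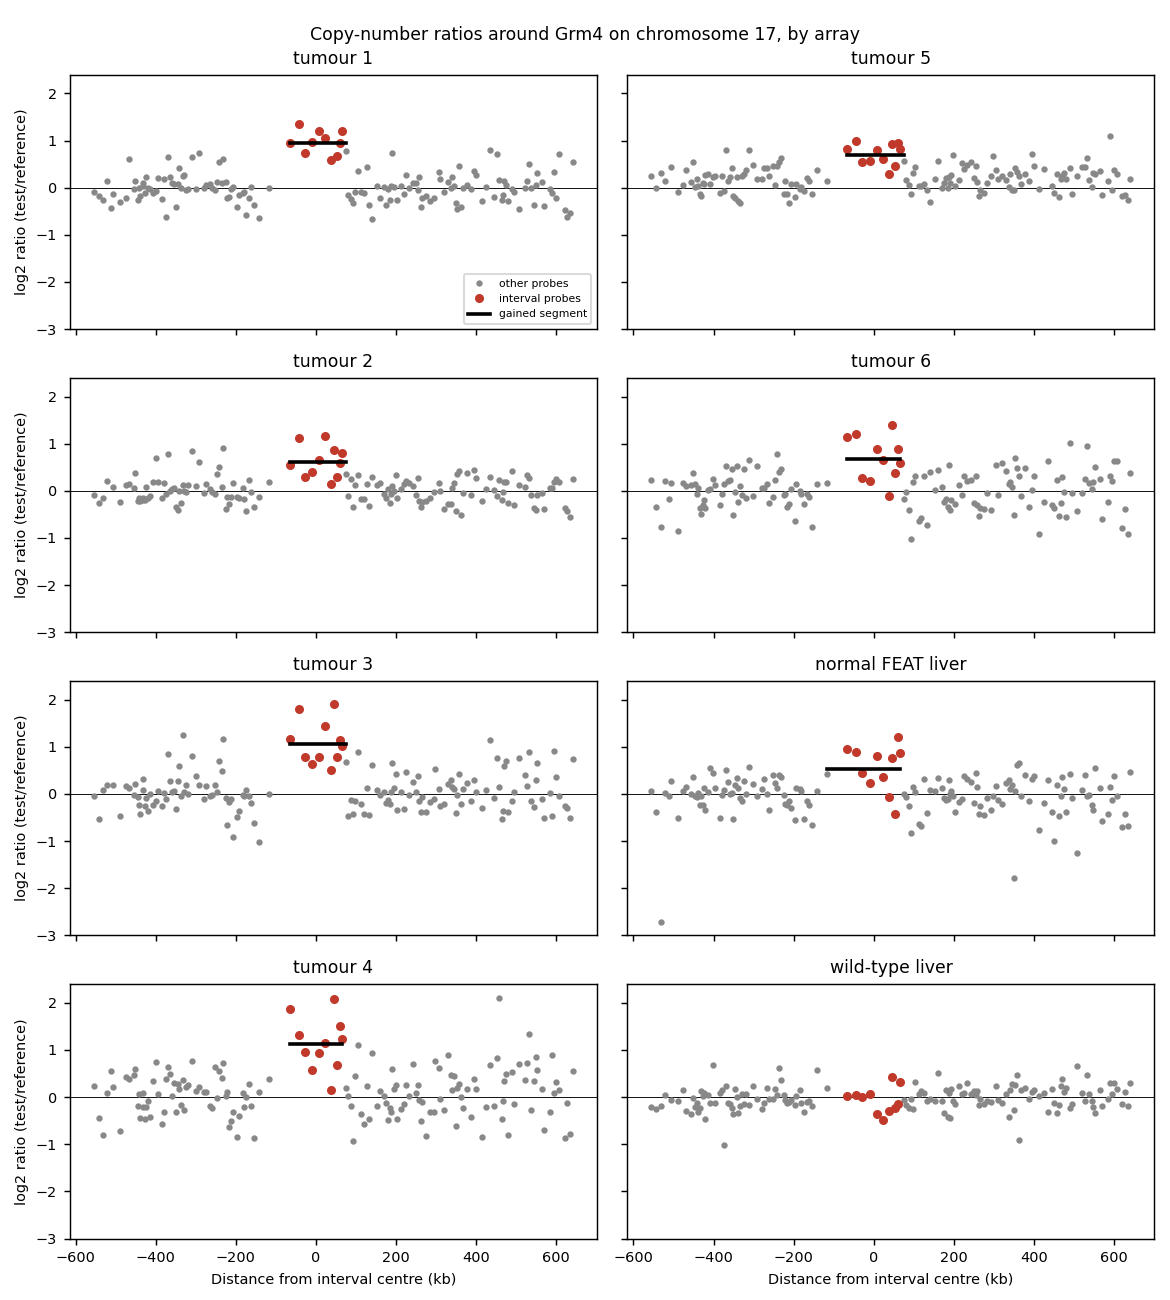
Log2 ratio of each probe of the window in each of the 8 arrays against its distance from the centre of the Grm4 interval in kb; red points are the 11 interval probes, grey points the others, and the black bar a gained segment at its mean. A bar stands over the interval in all 6 tumours and in the normal FEAT liver, and none in the wild-type liver.

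On a linear scale, the ratio of test to reference was 1.95, 1.50, 2.04, 2.20, 1.75 and 1.56 in tumours 1 to 6, 1.70 in the normal FEAT liver and 0.998 in the wild-type liver. Taken against 2 copies in the reference, these ratios correspond to 3.90, 3.0, 4.07, 4.40, 3.51 and 3.13 copies in tumours 1 to 6, and to 3.40 in the normal FEAT liver and 2.00 in the wild-type liver. Nominal copies in the tumours averaged 3.67 ± 0.55 (SD, n = 6). These figures are averages over all cells of a sample. They rest on values before the correction for probe signal described below. Under that correction the tumours' mean log2 level at the same probes was 0.73 in place of 0.86. Array ratios can be smaller than the true ratios, and neither this nor the share of tumour cells was measured.

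**Figure D2:**
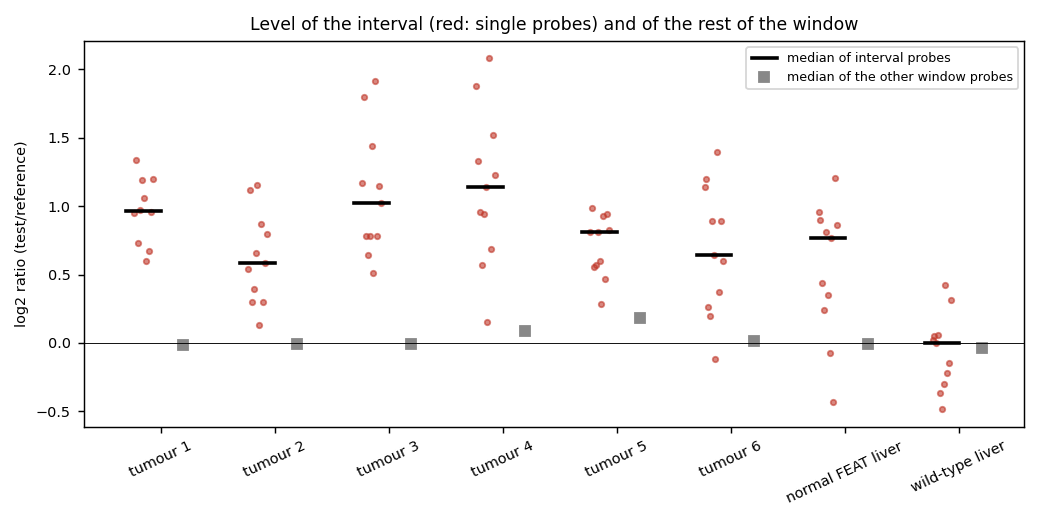
Log2 ratio of each interval probe (red points), the interval median (black bars) and the median of the other 149 probes of the window (grey squares) in each array. The interval medians run from 0.59 to 1.14 in the tumours, with 0.77 in the normal FEAT liver and -0.0028 in the wild-type liver, while the squares stay between -0.04 and 0.18.

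When each array was divided into segments on its own, a segment at or above 0.2 covered the interval in 6 of 6 tumours and in the normal FEAT liver. Its mean was 0.95, 0.60, 1.06, 1.14, 0.70 and 0.68 in tumours 1 to 6 and 0.54 in the normal FEAT liver. In the wild-type liver the same probes fell into a long segment at 0.01. The start was at 25489695 in all 6 tumours and at 25439001, 1 probe earlier, in the normal FEAT liver. The end was at 25630777 in tumours 1, 2, 3 and 5, and at 25621336 in tumours 4 and 6 and in the normal FEAT liver. Of all autosomal probes, gained segments held 4.19% in tumour 1, 0.0377% in tumour 2, 0.00545% in tumour 3, 7% in tumour 4, 13.8% in tumour 5, 0.015% in tumour 6, 0.00818% in the normal FEAT liver and 0.0636% in the wild-type liver. At the penalty used, and at a locus chosen with these calls known, tumours with few and with many gained probes shared this gained stretch. In tumour 3 it was the only gained autosomal segment under 3 Mb. By segment mean it stood first of 5 such segments in tumour 1, in place 2 of 8 in tumour 4 and 2 of 10 in tumour 5, and in place 6 of 11 in tumour 2. It was last of 3 in tumour 6 and last of 2 in the normal FEAT liver. The wild-type liver, without this segment, had 15 gained segments under 3 Mb, the most of the 8 arrays. A stricter penalty, of factor 4, left 3 tumours called (1, 2 and 3) and the normal FEAT liver uncalled. A penalty taken from the probe number of the whole array, added after the data had been seen, left 5 tumours called, without tumour 6, and again no call in the normal FEAT liver.

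Across the interval, 73 of 76 values in the 7 FEAT livers lay above 0, against 5 of 11 in the wild-type liver. Against the same probe in the wild-type liver, 75 of 76 FEAT values were higher. These values are not independent of each other. Over all autosomal probes, r ran from 0.41 to 0.76 between pairs of FEAT arrays. Between a FEAT array and the wild-type array it ran from 0.26 to 0.42. Of the 10 interval probes with a value in every array, 9 had all 7 FEAT livers above the wild-type liver, which was so at 13.6% of such autosomal probes and at 32 of 145 such probes in the rest of the window (22.1%). The exception was the Grm4 probe at 25608406, where the normal FEAT liver had -0.43 and the wild-type liver -0.22. All 6 tumours lay above both non-tumour livers at 3 of these 10 probes, against 2.03% of autosomal probes, so that tumours and the normal FEAT liver overlapped at most of them. Among all 219875 runs of 11 neighbouring autosomal probes, the median was at least 0.5 higher in each of the 7 FEAT livers than in the wild-type liver in 2 runs (0.00091%), and both lie at this interval. A median simply higher in all 7 FEAT livers, as at the interval, was found in 8.87% of runs. The interval had been chosen on these values, so this count describes how rare such a run was and supports nothing further.

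AK015366, with a single probe in the interval, had log2 ratios of 1.34, 1.12, 1.80, 1.33, 0.99 and 1.20 in tumours 1 to 6, 0.90 in the normal FEAT liver and 0.05 in the wild-type liver. Its tumour mean was 1.30 ± 0.28 (SD, n = 6), and every FEAT liver lay above the wild-type liver. The 7 interval probes without a gene name had a median of 0.96, 0.54, 0.78, 0.96, 0.60 and 0.64 in tumours 1 to 6, 0.44 in the normal FEAT liver and -0.0028 in the wild-type liver. Single interval probes differed, from a tumour mean of 0.26 at 25594470 to 1.44 at 25601534, where tumour 1 had no value and the mean is over 5 tumours.

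Grm4 was split by the edge of the interval. The median of its 3 probes inside was 0.95, 0.59, 1.03, 1.23, 0.83 and 0.60 in tumours 1 to 6, 0.86 in the normal FEAT liver and -0.15 in the wild-type liver. For its 10 probes beyond the edge the median was -0.10, 0.01, -0.18, -0.07, 0.07 and -0.29 in tumours 1 to 6, -0.16 in the normal FEAT liver and -0.05 in the wild-type liver. Split in this way, this receptor gene was high at one end, with a median near 0 beyond it. The edge had been searched on these same values to set high probes apart, so the split is a description. Single probes beyond scattered, with tumour means from -0.53 to 0.57, of which 4 were above 0 and 6 below. A median over all 13 probes, 0.04 ± 0.14 in the tumours (SD, n = 6), hid the difference. Inside minus beyond, the difference was 0.96 ± 0.28 in the tumours (SD, n = 6), 1.02 in the normal FEAT liver and -0.09 in the wild-type liver. Single probes of the 2 sets overlapped in 5 of the 6 tumours. Only in tumour 6 was the lowest inside probe, at 0.37, above the highest probe beyond, at 0.31.

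The edge inside Grm4 was not placed at the same probe in every array. The next Grm4 probe, at 25630718, had 0.78, 0.36, 0.67, 0.20, 0.57 and -0.17 in tumours 1 to 6, -0.0047 in the normal FEAT liver and -0.07 in the wild-type liver. It was intermediate in several tumours, and 4 of the 6 tumours counted it into their segment. The Grm4 probe after it, at 25636485, had a tumour mean of -0.09 and marked the return to the surrounding level. A Grm4 probe further out at 25648695, spotted 3 times on each array, had -0.33, -0.34, -0.42, -0.93, -0.14 and -1.01 in tumours 1 to 6, -0.83 in the normal FEAT liver and -0.04 in the wild-type liver. Its spots had an SD of 0.036 to 0.091 within an array, which covers spot error only. It is among the brighter probes of the window, with a log2 signal of 12.6, and the correction for probe signal described below took its tumour mean to -0.10 and tumour 6 to -0.33.

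Levels moved with the brightness of the probe. Over the 11 interval probes, the tumour mean fell with the probe's mean log2 signal on the wild-type array (r = -0.95 over 11 probes of shared arrays, a description). The same held over the other 149 probes of the window (r = -0.72), and in the wild-type liver r was -0.35 over the interval probes and -0.13 over the others. The trend was not particular to the window, as r over all autosomal probes was -0.74 for the tumour mean and -0.26 in the wild-type liver. With probes split at the median signal of the interval probes, the 5 dimmer interval probes had a tumour mean of 1.17, against 0.32 for the 37 dimmer probes elsewhere in the window. Among the 6 brighter interval probes it was 0.63, against -0.04 for the 112 brighter probes elsewhere. In these values the interval stood above its surroundings at either brightness, but it had been chosen and bounded as a high stretch on the same values. The part of brightness in these levels was not tested. All 11 interval probes were well above background in both colours on the wild-type array, and none was marked as an outlier there.

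**Figure D3:**
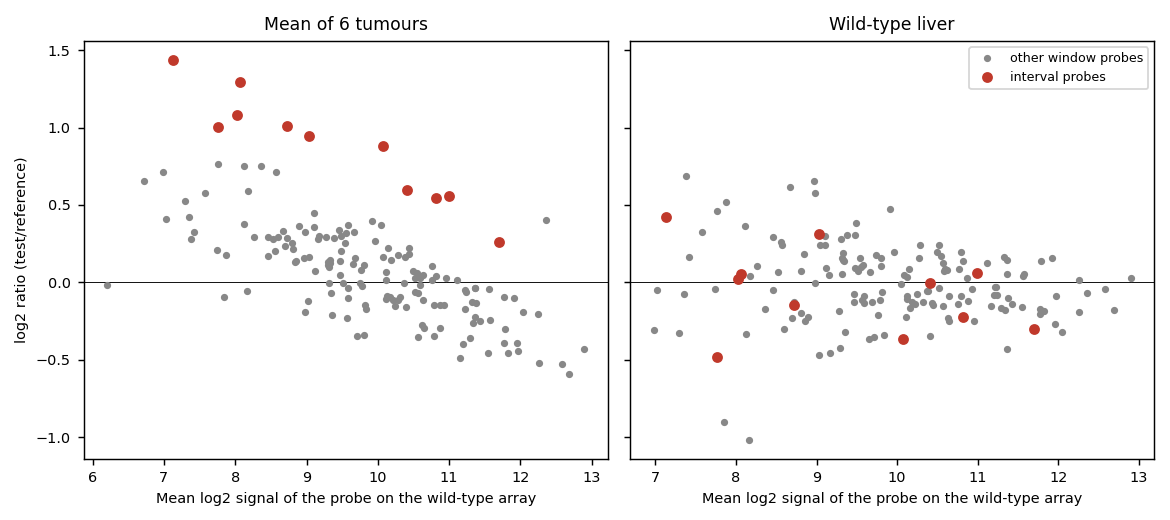
Log2 ratio against the probe's mean log2 signal on the wild-type array, as the mean of the 6 tumours (left panel) and in the wild-type liver (right panel); red points are the 11 interval probes and grey points the other 149 probes of the window. In the tumours both sets fall with signal (r = -0.95 and -0.72), with the interval probes above the others, and in the wild-type liver the 2 sets overlap.

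A correction of each array for probe signal, chosen after the data had been seen, changed the picture at the edge. The interval then ended at 25630777 and held 12 probes over 141 kb, with 4 Grm4 probes inside and 9 beyond. The next probe lay 5.71 kb further out. The median of the interval was then 0.80, 0.53, 0.87, 0.96, 0.68 and 0.52 in tumours 1 to 6, 0.59 in the normal FEAT liver and -0.11 in the wild-type liver. Spread among the 11 original interval probes was smaller after the correction, with an SD of 0.180, 0.227, 0.235, 0.245, 0.146 and 0.244 in tumours 1 to 6, against 0.243, 0.336, 0.463, 0.564, 0.226 and 0.471 before it. Of the 11 of its probes with a value in every array, 10 had all 7 FEAT livers above the wild-type liver, against 13.1% of such autosomal probes after the same correction. Runs of 11 probes at least 0.5 higher in all 7 FEAT livers then made up 0.00227% of autosomal runs, 5 in all, and each overlapped the interval.

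With the correction, the 4 inside Grm4 probes separated fully from the 9 beyond in all 6 tumours, though not in the normal FEAT liver. This rests on bounds searched again on the corrected values, which moved the probe at 25630718 inside. Its corrected values were 1.04, 0.57, 1.01, 0.92, 0.77 and 0.45 in tumours 1 to 6. Each was above the lowest inside Grm4 probe, so with the earlier bounds the sets overlapped in all 6 tumours. The median of the 4 inside probes averaged 0.76 ± 0.20 in the tumours (SD, n = 6) and was 0.59 in the normal FEAT liver and -0.09 in the wild-type liver. Those 9 beyond averaged -0.01 ± 0.10 in the tumours (SD, n = 6), with -0.15 in the normal FEAT liver and 0.02 in the wild-type liver. In the normal FEAT liver the Grm4 probe at 25608406 was again the low one, at -0.26 after the correction.

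**Figure D4:**
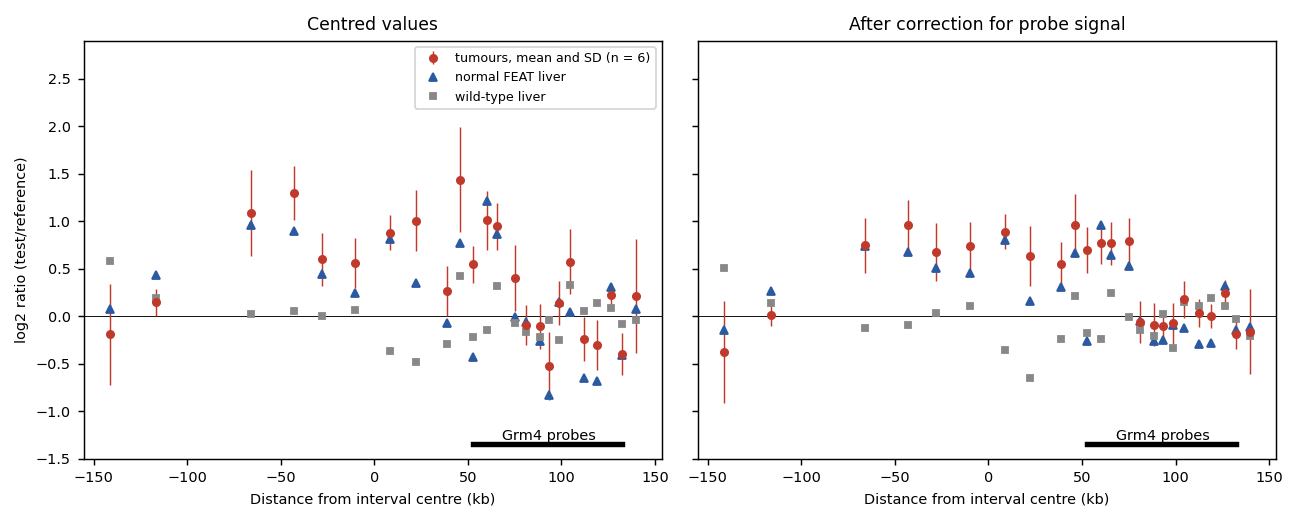
Log2 ratio of the probes around the interval against their distance from its centre in kb, as centred (left panel) and after the signal correction (right panel); red points and bars are the mean and SD of the 6 tumours (5 at 1 probe), blue triangles the normal FEAT liver, grey squares the wild-type liver, and the black bar spans the 13 Grm4 probes. After the correction the tumour means drop between neighbouring Grm4 probes, with the 4 inside at 0.70 to 0.79 and the 9 beyond at -0.18 to 0.25.

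The neighbouring genes of the window did not share the level of the interval. Of 28 gene names in the window, 26 have no probe in the interval, and their tumour means ran from -0.39 for Rps10, a ribosomal protein gene with 1 probe, to 0.37 for Taf11, a subunit of the general transcription factor TFIID with 2 probes. After the signal correction the Rps10 probe had a tumour mean of -0.09, and the 2 Taf11 probes had 0.39 and 0.21. In 8 of these 26 genes all 7 FEAT livers lay above the wild-type liver, against 12.4% of all autosomal genes. On the low-coordinate side, Lemd2, which encodes an inner nuclear membrane protein, had -0.07 ± 0.19 in the tumours (SD, n = 6), -0.34 in the normal FEAT liver and -0.21 in the wild-type liver. Itpr3, an inositol trisphosphate receptor of the endoplasmic reticulum, had 0.14 ± 0.15 in the tumours (SD, n = 6), 0.16 in the normal FEAT liver and -0.05 in the wild-type liver. Bak1, a pro-apoptotic BCL2 family gene, had -0.18 ± 0.14 in the tumours, -0.17 in the normal FEAT liver and -0.09 in the wild-type liver. Uqcc2, an assembly factor of mitochondrial complex III named 2900010M23Rik on the array, was at or above 0.2 in all 6 tumours, with a mean of 0.36 ± 0.10, against 0.18 in the normal FEAT liver and 0.11 in the wild-type liver. Its 2 probes are dim, with log2 signals of 8.84 and 8.18, and after the signal correction their tumour means were -0.08 and 0.27. On the Grm4 side, Hmga1, an architectural chromatin protein gene often raised in cancers, had 0.19 ± 0.15 in the tumours (SD, n = 6), 0.15 in the normal FEAT liver and -0.18 in the wild-type liver. It has 2 probes, with log2 signals of 9.12 and 9.17, and their tumour means were -0.09 and 0.14 after the signal correction. BC072635, a single probe just past the last Grm4 probe, ran from -0.66 to 0.94 in the tumours, with 0.08 in the normal FEAT liver and -0.04 in the wild-type liver. In the RefSeq gene order of assembly GRCm38.p6, 8 genes lie between Lemd2 and Grm4, of which 4 are microRNA genes and 4 long non-coding RNA genes. Whether they fall in the interval was not determined here.

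The pattern over the 8 arrays was set against 13093 genes with at least 3 probes. The nearest, by root-mean-square difference from the interval median over the 8 arrays, was Tcte3, also on chromosome 17 but outside the window, at 0.252. Its 4 probes had 0.65 ± 0.06 in the tumours (SD, n = 6), 0.62 in the normal FEAT liver and 0.12 in the wild-type liver, and it was the only gene within 0.3. Racgap1, which regulates cell division, followed at 0.364, then Fads6, a fatty acid desaturase family gene, at 0.368, and AK082683 was also among the 5 nearest, at 0.379. Each of these 4 genes had a wild-type level below its tumour mean, as the search for this pattern favoured. Racgap1, Fads6 and AK082683 have only 3 probes each. Tcte3, Racgap1 and AK082683 each lay in gained segments in 2 tumours, and Fads6 in 0. Over all autosomal genes, 5.31% lay in gained segments in at least 2 tumours. Tcte3 varied little between tumours and the interval varied more.

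The tumours' interval levels were set against 3 measures that had not been used to choose it, with exact two-sided permutation tests over all 720 pairings of the 6 tumours and p-values adjusted over 6 tests. With age, Pearson's r was 0.13 (exact p = 0.826) and Spearman's rho was -0.143 (exact p = 0.803). With the mean of the 2 Mettl13 probes, r was 0.29 (exact p = 0.678) and rho 0.0286 (exact p = 1). With the median of chromosome 17 outside the window, r was 0.22 (exact p = 0.721) and rho 0.429 (exact p = 0.419). No relation passed, with adjusted p-values of 0.992 throughout except 1 for rho with the Mettl13 probes. Without the 2 tumours farthest from the median of the measure, r was -0.764 with age (exact p = 0.292, 24 pairings), -0.894 with the Mettl13 probes (exact p = 0.167) and 0.453 with chromosome 17 (exact p = 0.583). The signs for age and for the Mettl13 probes thus rested on single tumours. The mean of the Mettl13 probes was 0.87, 1.00, 2.14, 0.66, 0.81 and 0.60 in tumours 1 to 6, 1.29 in the normal FEAT liver and -0.0020 in the wild-type liver. All 7 FEAT livers stood above the wild-type liver at both probes. The 2 probes differed from each other, with 3.73 and 0.56 in tumour 3 and 0.26 and 1.07 in tumour 4, and only their mean was tested.

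**Figure D5:**
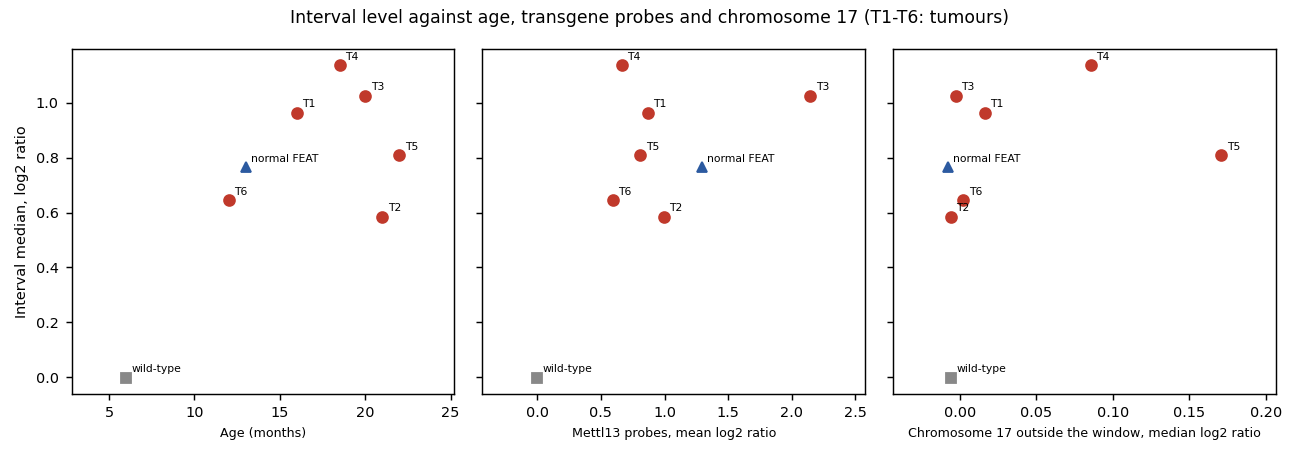
Interval median log2 ratio against age in months (left panel), the mean log2 ratio of the 2 Mettl13 probes (middle panel) and the median log2 ratio of chromosome 17 outside the window (right panel); red points are tumours 1 to 6, the blue triangle the normal FEAT liver and the grey square the wild-type liver. Over the 6 tumours Pearson's r was 0.13, 0.29 and 0.22.

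Glutamate signalling genes elsewhere in the genome were examined for comparison, from a list of 38 genes of which 34 were found on the array by name. The metabotropic receptor genes Grm3, Grm6, Grm7 and Grm8 were not in a called segment in any tumour. Their tumour means were 0.10 ± 0.05 for Grm3, -0.24 ± 0.15 for Grm6 with 2 probes, 0.01 ± 0.07 for Grm7 and 0.02 ± 0.06 for Grm8 (SD, n = 6). Of the 33 autosomal genes, 4 lay in a gained segment in at least 1 tumour, against 15.1% of all autosomal genes, and 9 in a lost one, against 24.4%. Gains in at least 2 tumours were seen for 1 gene (5.31% of all genes), and losses in at least 2 for 1 gene (0.698%). The first was Slc1a3, a glial glutamate transporter, gained in tumours 1 and 5, and the second Grik4, a kainate receptor subunit, lost in tumours 4 and 5. The median of the list was 0.02 in the tumours against -0.0026 over all 24783 autosomal genes.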

How the data were processed

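The deposited log2 ratios of 8 two-colour Agilent arrays (test DNA in Cy3, common reference DNA in Cy5, per the labels) were used. Agilent Feature Extraction, version 9.1.3.1 under the protocol CGH-v4_91, had made the scanner file, per the file headers, and CGH analytics 3.4 is named by the series description. On that array the deposited values equalled the scanner's log10 ratio of red over green, sign turned and in log2, plus 0.0014 (r = -1), so a higher value means more test DNA. For the other 7 arrays the direction rests on the dyes in the labels. The deposited intensity values and flags of the wild-type array gave probe signal and background checks.

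Repeated spots were averaged (235406 rows to 232626 probes), and the autosomal median was subtracted per array, with no loess or quantile step. Segments came from penalised least squares (penalty factor 2, at least 5 probes, outlying values limited to 3 noise SDs around a running median of 5 probes), and were called at 0.2. The segmentation and the interval search were tested on simulated data with independent noise and no trend with probe signal. The members, the lists and the rule on which genes are named (window genes, the 5 nearest patterns and the glutamate list) were chosen with earlier results of these data known. Some genes that this rule names are not reported here. Array number limits the precision. The exact p-values give the share of pairings of these tumours with a correlation at least as strong, and cover no other mice. Python 3.11.15 with scipy 1.17.1 and statsmodels 0.14.6 was used. Alternatives varied spot averaging, centring, GC and signal correction, filters, penalty, threshold and left-out tumours.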

Additional observations from a re-analysis of the deposited data

Results flagged for a closer look

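Among the 45 sets of 6 tumour values examined, 3 held a tumour far from the others, where chance alone gives about 2.25. The Mettl13 probe level of tumour 3, at 2.14, stood apart from a tumour median of 0.84. This level is the mean of 2 probes, which had 3.73 and 0.56 in tumour 3, so it came from a single high probe. The Itpr3 level of tumour 5 was 0.42 against a tumour median of 0.10. The Nudt3 level of tumour 5 was 0.44 against a tumour median of 0.09. Chromosome 17 outside the window was also highest in tumour 5, at 0.17.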

How the results depend on the processing

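The tumour mean level of the interval lay between 0.73 and 0.90 over 10 alternatives and between 0.81 and 0.92 with 1 tumour left out. The normal FEAT liver lay between 0.55 and 0.80 and the wild-type liver between -0.13 and 0.03 over the same 10. The bounds were searched under another set of 10 alternatives, and the interval started at 25489695 under each. Its end moved to 25630777 under the correction for probe signal, and was 25621336 under the others and with each tumour left out. All 6 tumours were called, and 5 of 5 with 1 left out, except for 5 with a penalty from the probes of the whole array (tumour 6 was lost) and 3 with penalty factor 4 (tumours 4, 5 and 6 were lost). Under these 2 settings the normal FEAT liver was not called either, and a stricter penalty by construction drops short segments. The signal correction, the probe's own GC correction, the whole-array penalty and the removal of the probe with a missing value were added after the data had been seen. With 1 tumour left out, r ranged from -0.546 to 0.483 with age (the low value without tumour 6), from -0.293 to 0.631 with the Mettl13 probes (the low value without tumour 3) and from 0.0106 to 0.677 with chromosome 17. Without the 2 farthest tumours, r was -0.764 with age and -0.894 with the Mettl13 probes. With the mean of the probes in place of the median, r with chromosome 17 was -0.0287. The exact p-values of these alternatives ran from 0.15 to 0.983, and the cause of the sign changes was not tested. The 11 probes limit what can be seen inside the interval, and their spacing limits its edges. No paired analysis was possible because the 2 non-tumour groups hold 1 array each.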
